A study of Rattus norvegicus with 9 samples.

Results

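The beta subunits of the sodium-potassium ATPase were followed in the supraoptic nucleus of the rat by 7 probe sets of 3 genes: 3 of Atp1b1, 3 of Atp1b2 and 1 of Atp1b3. They are all the probe sets that the platform annotation assigns to exactly 1 of these symbols, out of 8740 that are not Affymetrix controls; the annotation names 4736 genes this way. The rule reads the annotation and not the signals. Catalytic alpha subunits are not among them, so the values below describe the beta subunits and not the whole pump.

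The 9 arrays carried total RNA of the supraoptic nucleus of male Sprague Dawley rats aged 10 to 12 weeks. A control group, a group dehydrated for 1 day and a group dehydrated for 3 days had 3 arrays apiece, titled a, b and c. The labels do not say whether an array holds 1 animal or a pool. The p-values therefore set group differences only against the scatter of these samples, and part of that scatter may be technical. Values are MAS5 signals, the linear intensity that Affymetrix software makes from the probes of a probe set. Such a signal cannot tell more cells of a type from more RNA per cell.

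The sodium-potassium ATPase uses ATP to carry sodium out of the cell and potassium in, and so rebuilds the gradients that action potentials run down. Its alpha subunit binds the ions and splits ATP, while the beta subunit, a glycoprotein with a single membrane span, is needed for the alpha subunit to fold and to reach the plasma membrane. Small FXYD proteins tune its activity. The magnocellular neurons of the supraoptic nucleus fire at high rates in dehydration to release vasopressin and oxytocin, and the astrocytes around them take up the potassium that firing sets free.

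The tissue markers were present. Avp, the vasopressin gene, read between 1622 and 5678 and Oxt, the oxytocin gene, between 208.3 and 4356 over the 9 arrays. Genes of neighbouring lateral hypothalamic neurons were also detected, Hcrt (orexin) between 161.3 and 844.4 and Pmch between 50.8 and 667.8. Arrays control c and 1-day c stood apart. Their highest signals were 2105 and 2239, against maxima of 3867 to 6295 on the other 7 arrays. Oxt read 208.3 and 272 on them and at least 2331 elsewhere. The highest Hcrt and Pmch readings were those of control c. This was not shared by 1-day c, where they read 419.6 and 148, within the range of the other arrays. Bright genes differed on control c and 1-day c. The neuronal surface gene Thy1 read 2049 and 2221, within its range of 2019 to 2389 over the others. The neuronal genes Uchl1 and Syp were lower there than on any other array. Uchl1 read 1280 and 608.1, against 1880 to 2426 on the others. Syp read 609.3 and 558.4, against 714.5 to 910.8. The Atp1b1 and marker results that rest on these 2 arrays are given with and without them. The letters pair the arrays across groups, so differences within a letter are given as well.

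Atp1b1 encodes beta 1, the most widespread beta subunit and one that neurons make strongly. Its leading probe set, rc_AI112173_at, was the brightest of the 7 and number 3 in brightness among all probe sets by mean signal. In control it read 3547, 3466 and 1491 on arrays a, b and c. After 1 day of dehydration the readings were 3734, 3019 and 1273. After 3 days they were 4182, 4190 and 5340. All 3 of the 3-day arrays lay above every control array and every 1-day array, while control and 1-day arrays overlapped. Control c and 1-day c were far below the other 7 arrays.

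Averaged over 3 arrays (± SD) this probe set read 2835 ± 1165 in control, 2676 ± 1266 at 1 day and 4571 ± 666 at 3 days. On the log2(signal + 4) scale, the scale of every fold change below, it stood 0.78 ± 0.44 (SE) above control at 3 days, or 1.72-fold, with a 95% interval of -0.19 to 1.75. limma gave an unadjusted p of 0.10 and an adjusted p of 1.00, so it did not pass the threshold of 0.05. Of all 5247 tested probe sets 4.73 percent had every 3-day array above every control array. Against 1 day the difference was 0.90 ± 0.44 (limma adjusted p = 0.998), and 3.05 percent of tested probe sets had every 3-day array above every 1-day array. At 1 day it was -0.12 ± 0.44, with an interval of -1.09 to 0.85. The order of the group means was 1 day, control, 3 days, and neither step in it passed the test.

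Letter c carried most of the difference. At 3 days Atp1b1 stood above control by 0.24 in letter a, 0.27 in letter b and 1.84 in letter c. With a replicate block, which takes the letter into the limma model, the 3-day difference was 0.78 ± 0.37, with an interval of -0.05 to 1.61 (unadjusted p = 0.061, adjusted p = 0.873). With both control c and 1-day c left out, which was decided once their values were known, the difference at 3 days was 0.37 in place of 0.78, and 0.43 in place of 0.90 against 1 day. Leaving out control c alone also gave 0.37. Without these arrays the 3-day signals still lay above the others, since the highest remaining reading outside that group was 3734 and the lowest within it 4182. The rank of the probe set does not depend on how an array is scaled. Counted from the brightest, it was 6, 3 and 73 in control, 3, 20 and 148 at 1 day and 7, 4 and 3 at 3 days. On arrays a and b the rank was therefore about as high in control as at 3 days, while control c and 1-day c stood apart.

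The 3-day difference of Atp1b1 lay within the range of other probe sets of like brightness. Among the top 1 percent by mean signal there were 86 others; 78 stood above control at 3 days, and their quartiles were 0.29, 0.49 and 0.64. Of these 86, 13 stood further above control than Atp1b1. Against 1 day 82 of the 86 were higher, with a median of 0.48 beside 0.90 for Atp1b1, and 6 stood above it. Quantile normalization, which gives every array the same range of values, put Atp1b1 at 0.24 and the other bright probe sets at a median of 0.07, with 28 above Atp1b1; against 1 day these were 0.49 and 0.12, with 10 above it. Without control c and 1-day c the values were 0.37 for Atp1b1 and a median of 0.30 for the class, with 23 above it, and 0.43 and 0.25 against 1 day, with 15 above it. The part of this shift in the Atp1b1 value was not tested. Markers of magnocellular neurons stood higher on the same arrays: 8 of 10 were above control at 3 days, with a median of 0.50, and their summed signal was 11828 to 14185 against 5124 to 9426 in control. The lowest control sum was that of control c; without control c and 1-day c it was 8351 to 9426, still below every 3-day array, with 9 of 10 markers above control and a median of 0.48. At 1 day all 10 were above control, with a median of 0.14 (8 of 10 and 0.23 without both arrays). limma called 0 of the 10 at either time, with 2 at 1 day and 3 at 3 days under an unadjusted p of 0.05, and the part of these cells in the Atp1b1 value was not tested. Avp, Oxt and Cpe had the highest signals of this marker list and weighed most in its sums. The part of the shift of bright probe sets in these sums was not tested.

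**Figure D1:**
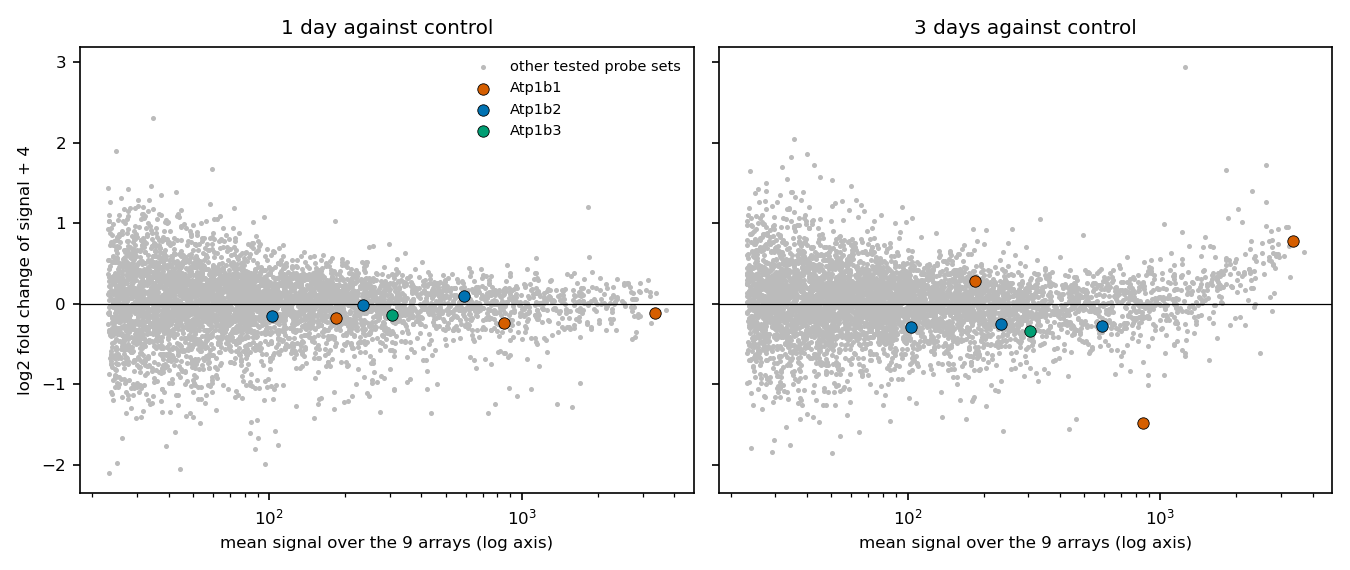
Log2 fold change of signal + 4 against the mean signal over the 9 arrays (log axis) for the 5247 tested probe sets, at 1 day and at 3 days against control; members are coloured by gene. At 3 days the brightest probe sets lie above 0 as a class, and the brightest Atp1b1 probe set, at 0.78, lies among them; at 1 day they do not.

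The other Atp1b1 probe sets gave different pictures. X63375exon_at read 158, 206.8 and 167.1 in control, 156.2, 120.8 and 199.2 at 1 day, and 191.6, 214.1 and 244.6 at 3 days. It was higher at 3 days than in control within all 3 letters, by 0.27, 0.05 and 0.54, though the groups overlapped. The difference was 0.29 ± 0.26 at 3 days (interval -0.29 to 0.86), -0.17 ± 0.26 at 1 day and 0.46 ± 0.26 between the times. limma passed none of these. This probe set was not low on control c or 1-day c, and lies far below the bright range. Higher in all 3 letters at 3 days were 2 of the 7 member probe sets, this one and rc_AI112173_at, against 16.9 percent of tested probe sets.

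The remaining Atp1b1 probe set, rc_AI230614_s_at, has a suffix that marks probes that may match several transcripts. It read 1276, 635.6 and 1027 in control, 1153, 924.9 and 468.3 at 1 day, and 1301, 30.3 and 858.4 at 3 days. A single array, 3-day b, read 30.3 where the other 8 arrays lay between 468.3 and 1301. Its difference of -1.48 ± 1.07 at 3 days rests on that array and was 0.17 without it. Against 1 day the value was -1.24 ± 1.07, and 0.41 without 3-day b. On 3-day b the other Atp1b1 probe sets read 4190 and 214.1, close to their neighbours, so the low value was not shared within the gene.

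**Figure D2:**
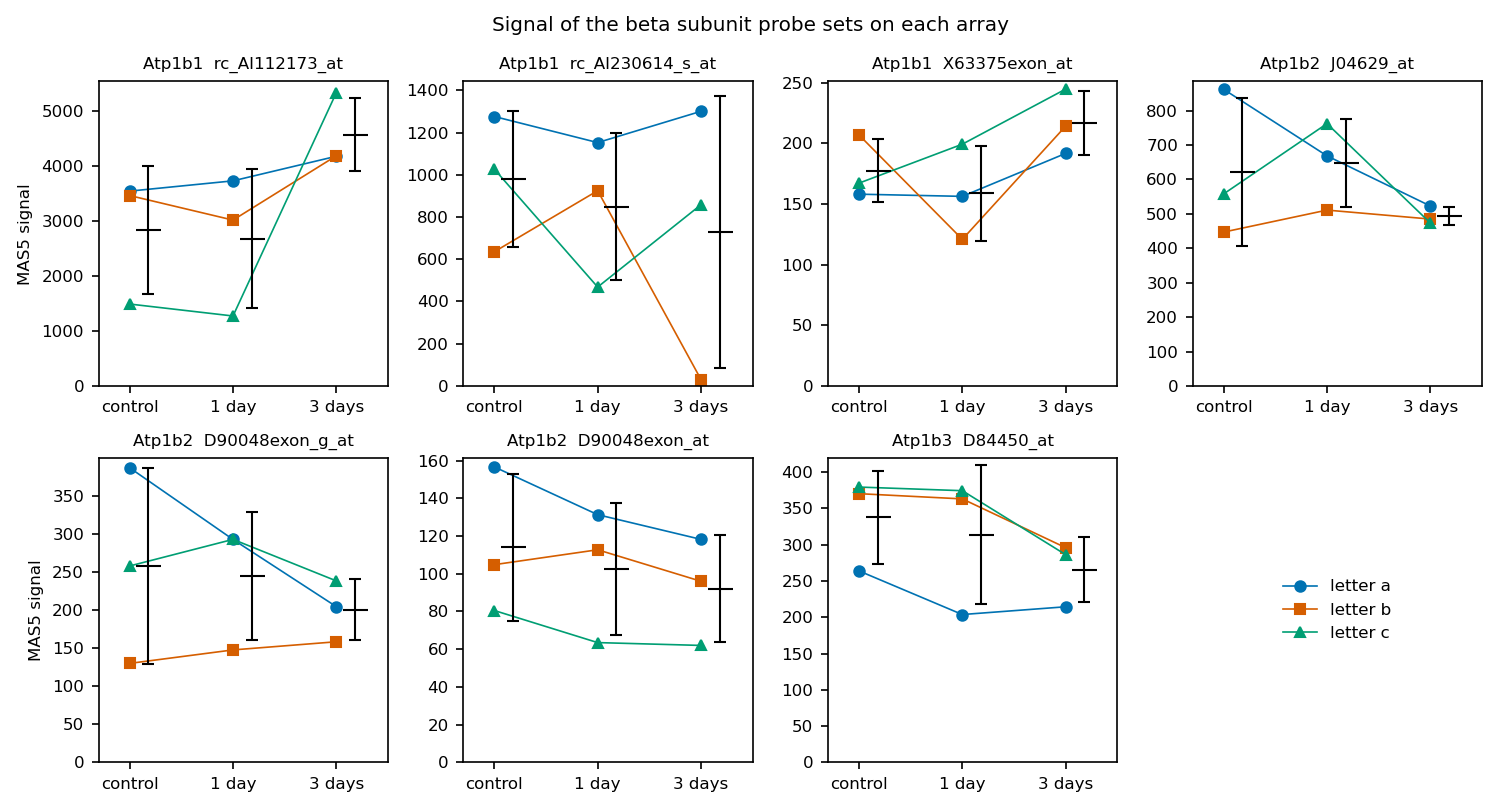
MAS5 signal of each of the 7 probe sets on each array, by group, each panel on its own axis from 0. Coloured lines join arrays of the same letter, and black bars give the mean and SD of 3 arrays. For rc_AI112173_at the letter c arrays of control and 1 day read 1491 and 1273, and for rc_AI230614_s_at the 3-day array b reads 30.3.

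Atp1b2 encodes beta 2, also known as the adhesion molecule on glia, which is strong in astrocytes and serves in cell adhesion as well as in the pump. Its leading probe set J04629_at read 862, 447.1 and 558 in control, 668.6, 511 and 762.3 at 1 day, and 522.9, 484.9 and 473.5 at 3 days. The 3-day arrays lay close together, within the range of the control arrays. Group means were 622 ± 215 for control, 647 ± 127 for 1 day and 494 ± 26 for 3 days (SD, n = 3). The coefficient of variation was 34.5 percent in control and 5.24 percent at 3 days, and control a alone set the upper end of the control range.

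At 3 days J04629_at stood at -0.28 ± 0.28 against control (interval -0.90 to 0.34) and at -0.37 ± 0.28 against 1 day, and at 1 day it stood at 0.09 ± 0.28. limma passed none of these. Within letters the 3-day difference from control was -0.72, 0.12 and -0.24, so letter b went the other way. Against 1 day it was lower in all 3 letters, by -0.35, -0.08 and -0.68, where 12.9 percent of tested probe sets were lower in all 3. Without control a the 3-day value was -0.02. Group means were ordered 3 days, control, 1 day, and no neighbours in that order differed beyond their spread.

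The other Atp1b2 probe sets, D90048exon_g_at and D90048exon_at, carry the same sequence accession in their names and may share probes. D90048exon_g_at read 386.8, 130 and 257.9 in control, 292.7, 147.7 and 292.8 at 1 day, and 204.5, 158.4 and 238.3 at 3 days. It stood at -0.01 ± 0.41 at 1 day and -0.25 ± 0.41 at 3 days. As in J04629_at, control a was the highest control array and control b the lowest, and letter b alone was higher at 3 days than in control. Without control a its 3-day value turned to 0.11.

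D90048exon_at read 156.6, 104.8 and 80.5 in control, 131.3, 112.7 and 63.5 at 1 day, and 118.2, 96 and 62 at 3 days. It kept the order a, b, c in every group, with larger differences between letters than between groups. At 3 days it was lower than control in all 3 letters, by -0.39, -0.12 and -0.36, and stood at -0.29 ± 0.37 in limma. That value was -0.04 without control a and -0.04 without 3-day c. All 3 Atp1b2 probe sets thus had a 3-day mean below control, between -0.29 and -0.25, with intervals that reached from -1.15 to 0.65 at their widest.

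Markers of astrocytes, which make Atp1b2, were mostly higher at 3 days, where its probe sets stood lower. Of 13 tested astrocyte genes 9 were higher at 3 days than in control and 4 lower, with a median of 0.28, against 0.02 over all tested probe sets. Glul, Aldoc and Apoe of this list are themselves bright, and the 86 bright probe sets described above had a median of 0.49 (0.30 without control c and 1-day c). The part of that shift in the marker values was not tested. limma called 0 of the 13, and 1 had an unadjusted p under 0.05. The summed signal of the list was 10836 to 17061 in control and 16740 to 22859 at 3 days. The lowest control sum was again that of control c; without control c and 1-day c the control sums were 16115 and 17061, which overlap the 3-day arrays, and the median was 0.17 with 9 of 13 higher. No listed astrocyte marker was at 0 on any array. Markers of neurons in general were higher in 8 of 13 genes at 3 days, with a median of 0.05 and summed signals of 8798 to 11120 in control and 10332 to 11490 at 3 days; without both arrays 7 of 13 were higher, with a median of 0.01 and control sums of 10557 and 11120. Markers of endothelium and blood, 5 tested and led by the globin genes, had 4 lower, with a median of -0.50 and summed signals of 1655 to 2281 at 3 days against 2772 to 3077 in control (4 lower and a median of -0.30 without both arrays). Most of the 5 are blood genes. Of the endothelial genes, Pecam1 read 35.4, 51.9 and 21.4 in control and was higher at 3 days, at 51.9, 57.7 and 36.4. Flt1 read 87.1, 79.8 and 59.7 in control and 73.6, 84.5 and 54.6 at 3 days. The part of cell composition in the beta subunit values was not tested.

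Atp1b3 encodes beta 3, a subunit found in many tissues. Its single probe set D84450_at read 263.8, 370.2 and 379.3 in control, 203.7, 363 and 374.3 at 1 day, and 214.4, 295.8 and 286.2 at 3 days. Letter a was the lowest in every group, and the groups overlapped. Within letters, however, the 3-day array was below its control each time, by -0.29, -0.32 and -0.40. Of the 7 member probe sets 2 were lower than control in all 3 letters at 3 days, D84450_at and D90048exon_at, and so were 13.2 percent of all tested probe sets.

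Group means of Atp1b3 were 338 ± 64 for control, 314 ± 95 for 1 day and 265 ± 44 for 3 days (SD, n = 3). Its difference at 3 days was -0.34 ± 0.30 without regard to the letters (limma unadjusted p = 0.28, adjusted p = 1.00), and -0.19 without 3-day a. With the replicate block, which takes the letter into the model, it was -0.34 ± 0.17 (unadjusted p = 0.085, adjusted p = 0.873; interval -0.73 to 0.06). At 1 day it was also lower in all 3 letters, but in b and c by -0.03 and -0.02. Its value of -0.14 ± 0.30, without regard to the letters, turned to 0.14 without 1-day a. Letter a was the lowest in every group, so leaving out 1-day a or 3-day a alone also unbalances the letters. RefSeq lists a pseudogene, Atp1b3-ps2, and whether the probes also match it was not tested.

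Set side by side, the 2 Atp1b1 probe sets free of the single low reading stood above control at 3 days, at 0.78 and 0.29, and all 4 probe sets of Atp1b2 and Atp1b3 stood below it, between -0.34 and -0.25; the third Atp1b1 probe set stood at -1.48, through 1 array. Without control a, in the fit that leaves the letters out, the 3 Atp1b2 probe sets stood at -0.02, 0.11 and -0.04. Of these, D90048exon_at, highest on letter a in every group, was still lower than control within letters b and c, by -0.12 and -0.36. J04629_at and D90048exon_g_at were higher than control in letter b and lower in letter c. With any 1 array left out, Atp1b3 ranged from -0.51 to -0.19 at 3 days. limma called 0 of the 7 at 3 days, with none under an unadjusted p of 0.05. Among all 5247 it called 0 percent, and 90 were under an unadjusted p of 0.05. Of the 7, 2 were higher and 5 lower, with a median of -0.28, where 2715 of the 5247 were higher and 2532 lower, with a median of 0.02. At 1 day 1 was higher and 6 lower, with a median of -0.14, against 0.02 over all tested; 0 of the 7 and 0 percent of all tested were called, and none of the 7 had an unadjusted p under 0.05. Between the times the counts were 2 higher and 5 lower, again with 0 percent called.

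Counted array by array, at 1 day all 7 member probe sets overlapped with control, where 2.63 percent of tested probe sets lay wholly above it and 1.58 percent wholly below. At 3 days 1 of the 7 lay wholly above control and 0 wholly below, against 4.73 and 3.01 percent of tested probe sets. Between the times these were again 1 and 0, against 3.05 and 2.67 percent. Within letters, 0 of the 7 were higher in all 3 at 1 day (16.8 percent of tested probe sets) and 1, Atp1b3, was lower in all 3 (9.28 percent). Between the times 2 were higher in all 3, both of Atp1b1 (12.5 percent), and 2 lower in all 3, both of Atp1b2 (12.9 percent). With so few members these shares are a description.

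**Figure D3:**
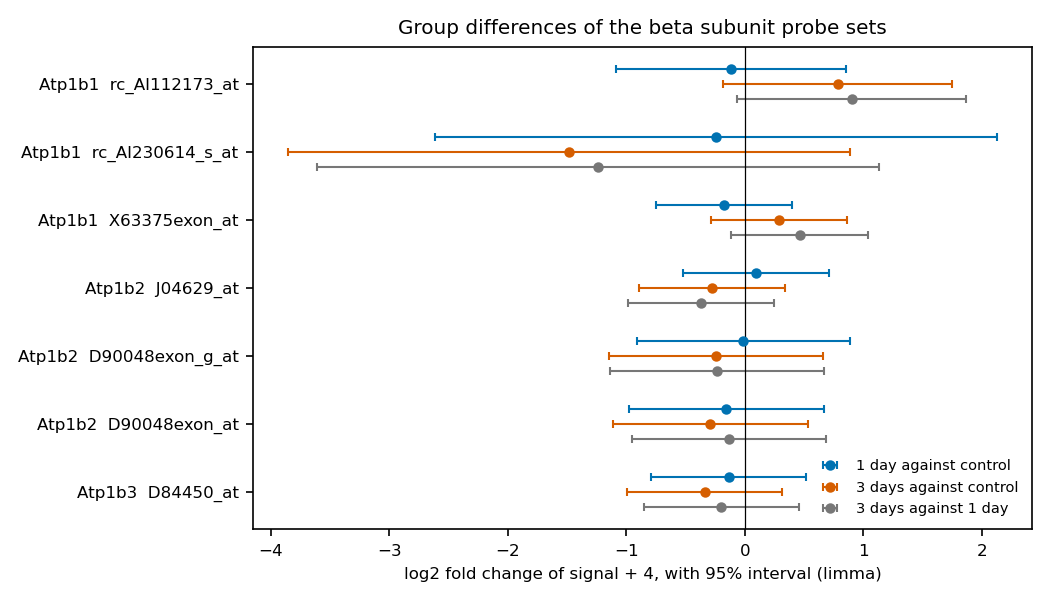
Log2 fold change of signal + 4 for each probe set in the 3 comparisons, with the 95% interval from limma. In this fit, which leaves the letters out, all 21 intervals include 0. The widest belong to rc_AI230614_s_at, where 1 array is low.

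A difference between genes on the same array cancels any scaling of that array, though not a difference in the range of bright signals, and shows unequal change only. Atp1b1 minus Atp1b3, each by its leading probe set, was 3.73, 3.21 and 1.96 on the log2 scale in control, 4.17, 3.04 and 1.76 at 1 day, and 4.26, 3.81 and 4.20 at 3 days. Every 3-day array lay above every control array, and the difference was larger than in control within each letter, by 0.53, 0.59 and 2.24. The mean difference was larger than in control by 1.12 (exact two-sided permutation test, p = 0.1, the smallest that 3 arrays against 3 allow; 0.3 adjusted over the 9 such tests). Without control c and 1-day c this value was 0.62. With X63375exon_at in place of the bright Atp1b1 probe set it was 0.63, and with rc_AI230614_s_at it was -1.15.

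Atp1b1 minus Atp1b2 was 2.04, 2.94 and 1.41 in control, 2.47, 2.55 and 0.74 at 1 day, and 2.99, 3.10 and 3.48 at 3 days. Again every 3-day array lay above every control array, larger by 0.95, 0.16 and 2.07 within the letters and 1.06 in the mean (exact permutation p = 0.1, adjusted 0.3). Without control c and 1-day c it was 0.70. At 3 days against 1 day the value was 1.27 (exact permutation p = 0.1, adjusted 0.3; 0.68 without both arrays), and for Atp1b1 minus Atp1b3 it was 1.10 (exact permutation p = 0.2, adjusted 0.45; 0.48 without both). At 1 day these differences stood at -0.21 and 0.02 relative to control (exact permutation p = 0.8 and 1). Atp1b2 minus Atp1b3 stood at 0.06 at 3 days, 0.23 at 1 day and -0.17 between the times (exact permutation p = 0.8, 0.7 and 0.7). The 9 tests could not reach 0.05 at this number of arrays. How often other pairs of a bright and a dimmer probe set separate in the same way was not counted. Of the 86 other bright probe sets 78 stood above control at 3 days, so a larger difference from a dimmer gene need not be particular to Atp1b1.

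**Figure D4:**
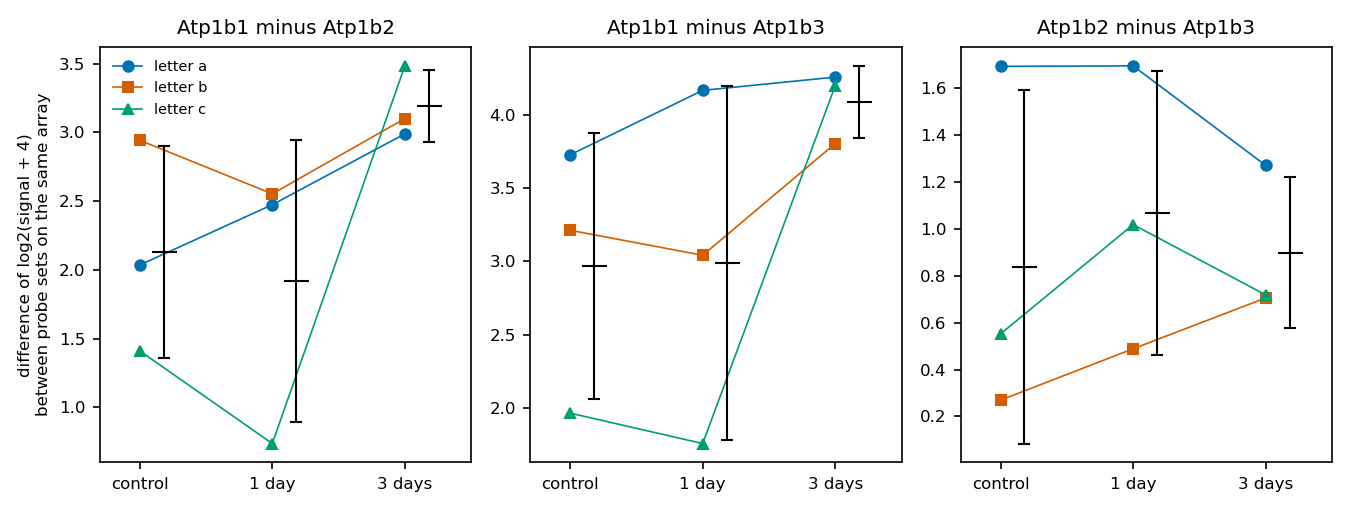
Difference of log2(signal + 4) between the leading probe sets of 2 genes on the same array, by group; lines join arrays of the same letter, and black bars give the mean and SD of 3 arrays. The 3-day arrays lie above all control arrays for Atp1b1 minus Atp1b2 and Atp1b1 minus Atp1b3, and the letter c arrays of control and 1 day are the lowest.

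The probe sets whose pattern over the 9 arrays was most like each leading member were chosen by Pearson r among tested probe sets of other genes, as a description. For Atp1b1 they were the apolipoprotein E gene Apoe, a marker of astrocytes (r = 0.993), Ndrg4 (0.992) and the ribosomal protein gene Rpl35 (0.985). All 3 are bright and low on control c and 1-day c: this Apoe probe set read 500.6 and 438.8 there and 2022 to 4295 elsewhere. Another Apoe probe set, brighter by mean, was less low on them, at 1862 and 1847 against 2277 to 4678 elsewhere. Over the other 7 arrays r was 0.940, 0.947 and 0.904. The nearest to Atp1b2 were Pkp4, a plakophilin of cell junctions (r = 0.891), the insulin receptor Insr (0.859) and the RNA-binding protein gene Khdrbs1 (0.835). Insr read only 8.5 to 54.5, with a mean of 26.9, close to the filter on low signal of 23.1. The nearest to Atp1b3 were Alas1, the first enzyme of heme synthesis (0.942), Psat1 of serine synthesis (0.937) and the carbonic anhydrase Car2 (0.934). These arrays share letters, and after subtraction of the letter means r was 0.953 for Alas1, 0.760 for Psat1 and 0.865 for Car2. For Pkp4, Insr and Khdrbs1 it was then 0.813, 0.813 and 0.878.

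Probe sets of a single gene followed each other closely in some cases and not in others. Over the 9 arrays rc_AI112173_at had r = 0.23 with X63375exon_at and -0.09 with rc_AI230614_s_at. Without control c and 1-day c the first became 0.83 and the second -0.18. For Atp1b2, J04629_at had r = 0.86 with D90048exon_g_at, about as high as with the nearest other genes, and 0.28 with D90048exon_at, the latter 0.74 without the 2 arrays.

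Of 11 alpha and FXYD partners of the pump, 4 had a probe set with 1 symbol, and 2 of these passed the filter on low signal; the rest were not analysed here. Fxyd1 (phospholemman), which slows the pump until it is phosphorylated, had a mean signal (± SD, n = 3) of 290 ± 55 in control, 322 ± 122 at 1 day and 269 ± 121 at 3 days. It differed by 0.10 ± 0.39 and -0.20 ± 0.39 from control, and a further Fxyd1 probe set by -0.89 ± 0.71 and -0.62 ± 0.71. Fxyd4 read 64.3 ± 19.1 in control, 57.9 ± 23.9 at 1 day and 83.5 ± 22.2 at 3 days, a difference of 0.36 ± 0.38 at 3 days. Atp1a4, the alpha subunit of sperm, read 1.9 to 13.8 and Fxyd2, a subunit best known from kidney, 2.5 to 22.2; both lay under the filter. limma called none of the tested partners, and their groups overlapped.

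Other cation pumps of the P type had 9 tested genes of 14 with a probe set. At 1 day 8 of the 9 were lower than control and 1 higher, with a median of -0.23. At 3 days 5 were lower and 4 higher, with a median of -0.08, and limma called 0 and found 0 with an unadjusted p under 0.05 in either comparison. The calcium pump of the plasma membrane Atp2b2 read 169 ± 20 in control, 127 ± 31 at 1 day and 133 ± 43 at 3 days, differences of -0.41 ± 0.30 and -0.37 ± 0.30. Atp2c1, the calcium and manganese pump of the Golgi, read 128 ± 45 in control and 87.2 ± 12.4 at 3 days (-0.48 ± 0.31). Atp4a, the catalytic subunit of the gastric proton pump, stood at -1.0 ± 0.68 at 1 day, from scattered readings of 96.9, 7.8 and 15.6 against 57.5 ± 26.2 in control. Between the times Atp2a3, a calcium pump of the endoplasmic reticulum, stood at 0.55 ± 0.36.

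Transporters that draw on the sodium gradient had 21 tested genes, of which 14 were higher at 1 day and 15 at 3 days, with medians of 0.11 and 0.11; limma called 0 at either time and 0 had an unadjusted p under 0.05. The glial glutamate transporter Slc1a3 read 591 ± 106 in control and 798 ± 67 at 3 days (0.44 ± 0.25). The sodium bicarbonate cotransporter Slc4a7 read 77.8 ± 9.7 in control, 84.7 ± 18.7 at 1 day and 50.8 ± 9.7 at 3 days, or -0.59 ± 0.29 against control and -0.69 ± 0.29 against 1 day; the latter had an unadjusted p of 0.036 and was not called. The sodium chloride cotransporter Slc12a3 stood at 1.07 ± 0.58 at 1 day. Its readings were low, at 50.3, 8.5 and 16.7 in control and 52.5, 53.3 and 36.5 at 1 day. The inositol transporter Slc5a3, which brings in an organic osmolyte, stood at -0.48 ± 0.43 at 1 day. It read 50.5, 61.1 and 54.2 in control and 56.5, 55.4 and 17.3 at 1 day, where only 1-day c lay outside the control range.

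Hormone receptors and kinases that act on the pump had 14 tested genes, 8 higher and 6 lower at 1 day and 7 of each at 3 days, with medians of 0.02 and 0.02 and 0 called by limma. Nr3c2, the mineralocorticoid receptor that mediates the effect of aldosterone on pump genes in kidney, read 23.1 ± 5.6 in control, 15.9 ± 15.8 at 1 day and 32.2 ± 13.5 at 3 days, again as the mean and SD of 3 arrays. The kinase Sgk2 stood at 0.26 ± 0.36 at 1 day. The atypical protein kinase C gene Prkcz read 217 ± 6 in control and 291 ± 53 at 3 days (0.40 ± 0.23), and Akt2, a kinase of insulin signalling, stood at 0.47 ± 0.38. None of these had an unadjusted p under 0.05.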

How the data were processed

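What was deposited are linear intensities of MAS5, a tool named in the submitters' processing notes; no version or scaling target is given in the sources used here. Each array's mean, trimmed by 2 percent at each end, was 100.1, and no further scaling was applied. From these, log2(signal + 4) was computed. Probe sets with a mean signal under 23.1, the 40th percentile, were left out; all 7 member probe sets passed, with 5247 of 8740 tested. Group means were fitted to all 9 arrays with limma 3.58.1 (R 4.3.3), an intensity trend and Benjamini-Hochberg adjustment over all tested probe sets at 0.05, and was tested on simulated data. Standard errors of log2 fold changes had a median of 0.40; the number of arrays limits the precision. A gene's leading probe set is its brightest by mean.

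The letters pair the arrays: deviations from group means correlated in all 9 pairs of the same letter (r from 0.17 to 0.47; different letters -0.33 to 0.12). What a letter stands for is not given in the labels. The members and gene lists were chosen with earlier results of these data known. All member probe sets are reported; of each list, up to 2 genes per comparison with the smallest p are named, besides the partners of the pump. Figures used Python 3.11.15 and matplotlib 3.10.9. No probe or protein sequence was used here.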

Additional observations from a re-analysis of the deposited data

How the results depend on the processing

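limma called 0 probe sets in each comparison, and by the F test where the fit held all groups, under all of these alternatives: pseudocounts of 16 or none, no filter or a 60th percentile filter, median centring, quantile normalization, no intensity trend, fits on the 2 groups compared, each array left out, and the replicate block. With the replicate block, which pairs the arrays, 0 probe sets were called and 136, 270 and 275 had an unadjusted p under 0.05 in the 3 comparisons (53, 90 and 96 without). The brightest Atp1b1 probe set then had an unadjusted p of 0.036 between the times (adjusted 0.770), with an interval of 0.07 to 1.73. The block changed no call. Filter, trend, block and 2-group settings leave a fold change as it is. Of 147 member fold changes that moved when arrays were left out 20 changed sign, and of 77 that moved under other settings 0 did. Of 63 within-array differences recomputed without arrays 13 changed sign, as did 13 of 36 with other probe sets and 0 of 18 with other pseudocounts.

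Without control c and 1-day c the 1-day values of J04629_at and rc_AI230614_s_at turned to -0.087 and 0.20, Atp1b1 minus Atp1b2 at 1 day to 0.024, and Atp1b2 minus Atp1b3 at 3 days to -0.083. With 1 array left out, the 1-day fold changes ranged from -0.30 to 0.14 (D84450_at), -0.37 to 0.14 (D90048exon_at), -0.43 to 0.34 (D90048exon_g_at), -0.12 to 0.35 (J04629_at), -0.53 to 0.35 (rc_AI112173_at), -0.53 to 0.13 (rc_AI230614_s_at) and -0.35 to 0.0025 (X63375exon_at). Those at 3 days ranged from -0.67 to 0.11 (D90048exon_g_at) and -2.46 to 0.17 (rc_AI230614_s_at), and between the times from -0.43 to 0.11 (D90048exon_at) and -2.21 to 0.41 (rc_AI230614_s_at). The within-array differences at 1 day ranged from -0.57 to 0.38 (Atp1b1 minus Atp1b2), -0.57 to 0.64 (Atp1b1 minus Atp1b3) and -0.085 to 0.66 (Atp1b2 minus Atp1b3), and Atp1b2 minus Atp1b3 from -0.22 to 0.49 at 3 days and -0.46 to 0.14 between the times.

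With other probe sets of the same genes, Atp1b1 minus Atp1b2 was 0.040 at 1 day (rc_AI112173_at and D90048exon_at). With rc_AI230614_s_at it was -1.20, -1.24 and -1.19 at 3 days and -0.87, -1.0 and -1.10 between the times, against J04629_at, D90048exon_g_at and D90048exon_at. Atp1b1 minus Atp1b3 was -0.11 at 1 day, -1.15 at 3 days and -1.04 between the times with rc_AI230614_s_at, and -0.037 at 1 day with X63375exon_at. Atp1b2 minus Atp1b3 was -0.019 at 1 day and 0.067 between the times with D90048exon_at.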
